A study of Mus musculus with 8 samples.

Results

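The genes described here are 39 genes of mitochondrial and peroxisomal fatty acid oxidation and of its control, listed by symbol. Of these 39 genes, 38 had a probe set that named them alone, among 19936 genes measured in all; the long-chain acyl-CoA synthetase gene Acsl1 was not analysed here. Where a gene had several probe sets, the one with the highest average across the 8 arrays stands for it. Total RNA of whole kidneys from female mice on a mixed C57BL/6 - SV127 background was read on 8 Affymetrix arrays, 1 mouse per array. The labels call 4 of the mice mutant (Vhl-floxed, with Pax8-rtTA and the Cre transgene LC-1) and 4 littermates control, whose alleles are not detailed. Under doxycycline, Pax8-rtTA switches on LC-1, so that Cre is made mainly in the tubule epithelium. All mice of both groups received doxycycline at 0.2 mg/ml in water with 5% sucrose beginning at 3 weeks of age and lasting 2 weeks, followed by 1 week on plain water, and kidneys were taken at 6 weeks of age. In whole-kidney RNA, fewer cells of a type and less RNA per cell cannot be told apart.

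Fatty acid oxidation removes acetyl units from fatty acyl-CoA in repeated rounds of dehydrogenation, hydration, a further dehydrogenation and thiolysis. In mitochondria, long-chain acyl groups enter through the carnitine shuttle, and the electrons pass through ETF to the respiratory chain. In peroxisomes, acyl-CoA oxidases pass electrons to oxygen, and very long-chain, branched-chain and bile acid side chains are shortened before export as carnitine esters. The proximal tubule is a main site of both pathways in the kidney, and the nuclear receptor PPAR alpha, encoded by Ppara, activates many of their genes. Vhl encodes the protein that directs breakdown of hypoxia-inducible factor (HIF) through its alpha subunits.

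Vhl, the targeted gene, read 8.25, 8.32, 8.46 and 8.33 on mutant arrays 1 to 4 and 8.01, 7.99, 7.96 and 8.22 on control arrays 1 to 4, so the mutant arrays lay above every control array. The log2 difference was 0.29 (SE 0.07, adjusted p = 0.0387 by limma, and 0.0286 by an exact permutation of 4 against 4 in both directions, which cannot go lower); the limma call was lost with 6 of the 8 arrays left out singly, all but mutant array 1 and control array 4, with the replicate number as a block (0.0558), and without mutant arrays 1 and 2 (0.0661) or 3 and 4 (0.123). Where its probe set lies relative to the floxed exon is not given, and outside that exon it would check nothing. Transcripts that HIF induces read lower on the mutant arrays: Egln3, a prolyl hydroxylase gene, was 7.81-fold lower, Car9, carbonic anhydrase 9, 7.35-fold, and Pdk1, a pyruvate dehydrogenase kinase gene, 3.02-fold. These genes run against the labels, so every difference below is the library labelled mutant minus the library labelled control, and not a direction of Vhl loss. On the second principal component of all genes (19.1% of the variance) mutant arrays 1 and 2 lay at 14.5 and 6.99, and mutant arrays 3 and 4 at -16.3 and -14.2. Where leaving out either of these pairs of arrays changed a call of a gene named below, the adjusted p without them is given. Of proximal tubule markers, 19 of 20 were measured, and the defining transporter Slc34a1 read 13.5 to 13.8 on all 8 arrays.

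The RefSeq promoter windows (GRCm38.p6, 250 bases before to 50 after the start, 5′ to 3′) of the 4 members whose transcripts fell are shown. The window of Phyh, which rose, was added because it holds a match, so that match follows from the choice of the window. Capitals mark the letters searched on both strands: AGGTCA, the half-site of PPAR and related nuclear receptors, TNAAGGTCA, the element of estrogen-related receptors, which contains that half-site, a direct repeat of AGGTCA spaced by 1 base (DR1), and ACGTG and GCGTG, the letters HIF binds.
Acot1 (chr12:84009252-84009551, plus strand): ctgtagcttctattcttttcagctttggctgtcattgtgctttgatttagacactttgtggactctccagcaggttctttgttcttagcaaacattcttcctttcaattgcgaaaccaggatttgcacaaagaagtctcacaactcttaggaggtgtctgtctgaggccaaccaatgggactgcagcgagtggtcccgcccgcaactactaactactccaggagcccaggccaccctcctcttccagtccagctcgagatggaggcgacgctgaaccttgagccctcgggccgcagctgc
Acot2 (chr12:83987611-83987910, plus strand): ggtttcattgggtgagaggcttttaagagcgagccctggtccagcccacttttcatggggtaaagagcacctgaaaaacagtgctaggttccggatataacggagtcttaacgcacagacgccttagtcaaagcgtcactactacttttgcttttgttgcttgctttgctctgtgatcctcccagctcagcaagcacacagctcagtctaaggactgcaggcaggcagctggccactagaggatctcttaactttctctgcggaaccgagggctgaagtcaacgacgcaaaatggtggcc
Pex11a (chr7:79743082-79743381, minus strand): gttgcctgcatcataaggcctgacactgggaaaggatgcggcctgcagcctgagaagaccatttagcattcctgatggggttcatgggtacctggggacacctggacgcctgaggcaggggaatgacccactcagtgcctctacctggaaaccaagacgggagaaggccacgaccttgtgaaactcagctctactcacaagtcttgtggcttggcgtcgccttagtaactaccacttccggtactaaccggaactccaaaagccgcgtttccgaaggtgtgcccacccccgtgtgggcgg
Eci2 (chr13:34994095-34994394, minus strand): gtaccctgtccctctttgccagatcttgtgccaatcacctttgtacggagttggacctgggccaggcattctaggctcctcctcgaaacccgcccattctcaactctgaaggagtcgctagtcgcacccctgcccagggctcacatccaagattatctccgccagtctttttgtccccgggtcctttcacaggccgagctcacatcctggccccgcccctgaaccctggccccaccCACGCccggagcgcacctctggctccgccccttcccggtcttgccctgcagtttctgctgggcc
Phyh (chr2:4918746-4919045, plus strand): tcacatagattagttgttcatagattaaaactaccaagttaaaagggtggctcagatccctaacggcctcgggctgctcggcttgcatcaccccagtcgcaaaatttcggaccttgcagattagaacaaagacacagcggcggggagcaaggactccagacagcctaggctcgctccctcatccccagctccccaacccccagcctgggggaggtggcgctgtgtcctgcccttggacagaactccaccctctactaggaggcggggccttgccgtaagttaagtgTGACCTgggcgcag

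Among these windows, that of Eci2 holds GCGTG on the opposite strand, starting 14 bases before the start, and that of Phyh holds AGGTCA on the opposite strand, 37 bases into the transcript. The windows of Acot1, Acot2 and Pex11a hold none of the letters searched, nor does that of Acox3, the other member that rose. Windows were found for 35 of the 39 members. AGGTCA lay in 7 of these 35 (20.0%) against 18.1% of 27025 genes, GCGTG in 16 (45.7%) against 35.1%, and ACGTG in 3 (8.57%) against 21.8%. TNAAGGTCA and DR1 lay in 0 of the 35 members, and in 1.43% and 0.05% of genes. A match, or its lack, describes only these letters in this window. The windows of Acot1 and Acot2, which lie next to each other in a cluster on chromosome 12 with Acot4 and Acot3, were identical at 45.7% of aligned columns, and those of Acot1 and the unrelated Pex11a at 45.4%.

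A small number of genes of fatty acid oxidation differed between the groups. Transcripts of 2 acyl-CoA thioesterases (Acot1 and Acot2), of the peroxisome division protein Pex11a and of the enoyl-CoA isomerase Eci2 fell in the arrays labelled mutant. Transcripts of the peroxisomal acyl-CoA oxidase Acox3 and of phytanoyl-CoA hydroxylase, Phyh, rose. By the limma test over all 19936 genes (adjusted p under 0.05), 2 of 38 measured members were higher and 4 lower, where 2.59% of all genes were higher and 4.64% lower. The other 32 did not pass; in either direction 15.8% of the members and 7.23% of all genes were called. Differences lay below 0 for 25 of the 38 (65.8%, against 41.9% of all genes), with a median of -0.07 on the log2 scale against 0.03 over all genes. Quantile normalization gave 5 higher and 4 lower members, where 3.5% and 4.4% of all genes were called, and with the replicate number as a block 0 were higher and 5 lower, where 3.04% and 5.27% were called. Without mutant arrays 1 and 2 the count was 2 higher and 0 lower, where 1.59% and 3.24% of all genes were called. Without mutant arrays 3 and 4 it was 1 higher and 4 lower, where 3.39% and 4.44% were called. In either direction, 2 members were called without mutant array 2 (4.6% of all genes) and without control array 1 (5.34%), and 3 without control array 2 (4.53%) and without control array 4 (6.86%).

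**Figure D1:**
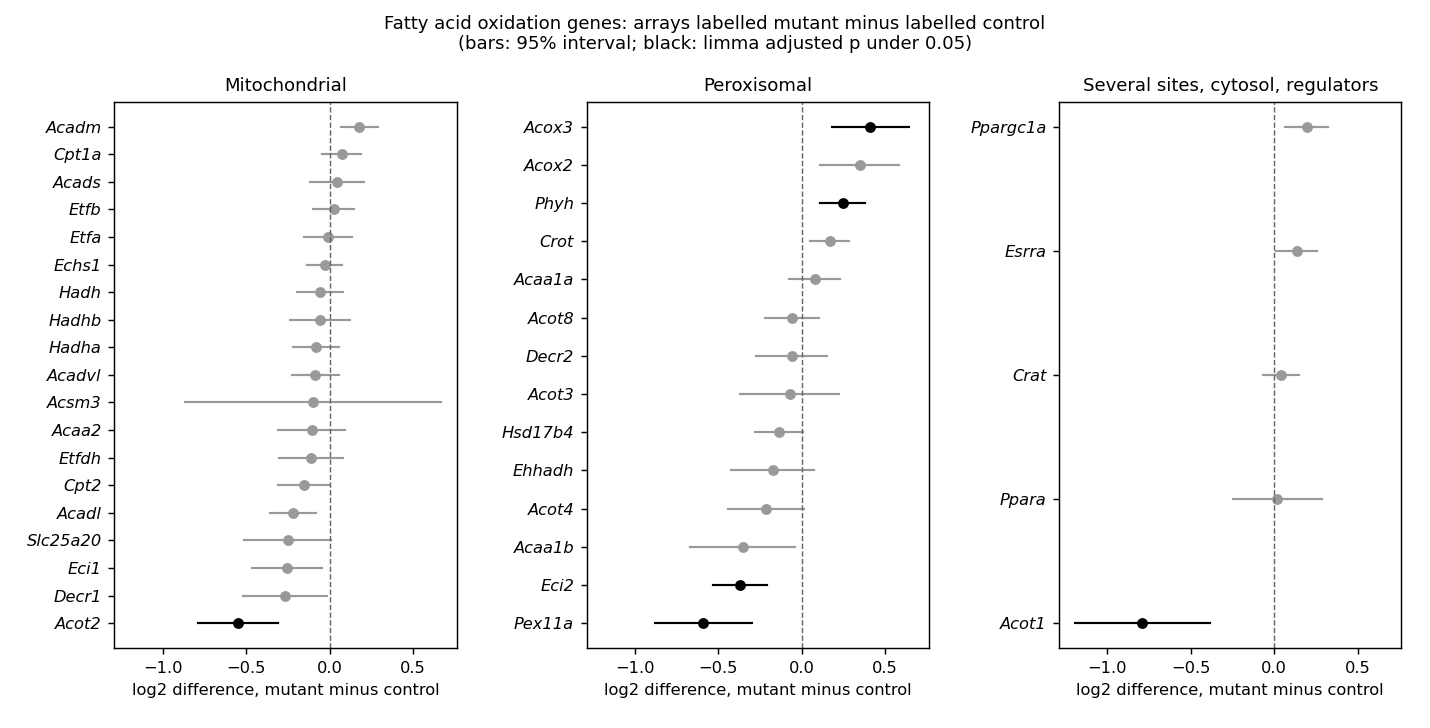
Log2 difference (arrays labelled mutant minus arrays labelled control, horizontal axis) of each of the 38 measured genes, in panels for the 19 mitochondrial, the 14 peroxisomal and the 5 other genes; bars are 95% intervals of the limma fit and black marks an adjusted p under 0.05. The mitochondrial genes other than Acot2 lie between -0.27 and 0.18, while the peroxisomal genes extend from -0.59 to 0.41.

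Acyl-CoA thioesterases release free fatty acid and coenzyme A from acyl-CoA, in the cytosol (Acot1), in mitochondria (Acot2) and in peroxisomes (Acot3, Acot4 and Acot8). Acot1 read 8.50, 8.42, 8.86 and 9.04 on mutant arrays 1 to 4 and 9.48, 9.70, 9.01 and 9.78 on control arrays 1 to 4. Only mutant array 4 and control array 3 overlapped. Mean Acot1 was 1.73-fold lower on the mutant arrays (8.71 ± 0.293 against 9.50 ± 0.347, SD, n = 4 each; log2 difference -0.79, SE 0.18; limma adjusted p = 0.0283). It missed the threshold when mutant array 1 (limma adjusted p = 0.0666) or 2 (0.0858), or control array 1 (0.0682), 2 (0.0861) or 4 (0.0645) was left out, and when mutant arrays 1 and 2 were left out together (0.187).

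Acot2 read 11.97, 11.78, 12.06 and 12.01 on the mutant arrays and 12.49, 12.48, 12.25 and 12.79 on the control arrays, without overlap. It was 1.46-fold lower (11.95 ± 0.122 against 12.50 ± 0.221, SD, n = 4 each; log2 difference -0.55, SE 0.11; limma adjusted p = 0.0137). Leaving out any single array kept the call, whereas leaving out mutant arrays 1 and 2 together did not (limma adjusted p = 0.0921). The peroxisomal thioesterases did not pass: the log2 differences were -0.21 for Acot4, -0.07 for Acot3 and -0.06 for Acot8 (limma adjusted p = 0.259, 0.785 and 0.676). Acot1, Acot2, Acot3 and Acot4 are closely similar copies, and how far their probe sets share sequence is not given in the sources used here. Among the control arrays, array 3 read lowest for all 4 of these genes, and Acot2 and Acot4 had the same order of arrays.

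Pex11a, which encodes a peroxisome membrane protein that promotes division and is induced by PPAR alpha ligands, read 10.76, 11.12, 11.28 and 11.39 on the mutant arrays and 11.70, 11.84, 11.52 and 11.86 on the control arrays. The groups did not overlap, and mutant array 1 was lowest. The level was 1.51-fold lower (11.14 ± 0.275 against 11.73 ± 0.155, SD, n = 4 each; log2 difference -0.59, SE 0.13; limma adjusted p = 0.0233). It missed the threshold when mutant array 2 (limma adjusted p = 0.0656) or control array 1 (0.0557), 2 (0.0730) or 4 (0.0558) was left out, and when mutant arrays 1 and 2 were (0.0727). Eci2, an isomerase that shifts double bonds of unsaturated acyl-CoA and is found in peroxisomes and mitochondria, read 9.87, 9.93, 10.01 and 9.96 on the mutant arrays. On the control arrays it read 10.27, 10.34, 10.15 and 10.48, above all 4 mutant arrays. The level was 1.29-fold lower (9.94 ± 0.0580 against 10.31 ± 0.140, SD, n = 4 each; log2 difference -0.37, SE 0.07; limma adjusted p = 0.0143), and at this threshold only leaving out mutant arrays 1 and 2 together ended the call among the alternatives run (limma adjusted p = 0.0982).

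**Figure D2:**
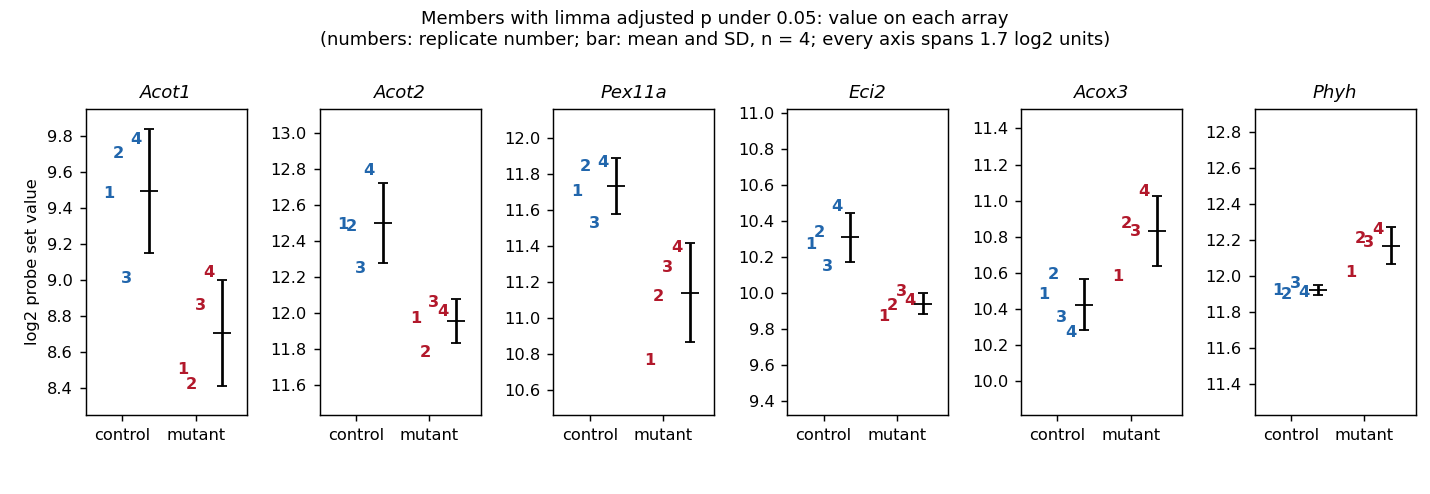
Log2 probe set value (vertical axis, the same span in every panel) of the 6 members that passed the limma test, on each labelled control array (blue) and labelled mutant array (red); the digit is the replicate number and the bar the mean and SD of 4 arrays. Acot2, Pex11a and Eci2 are lower on all 4 mutant arrays, Phyh is higher on all 4, and Acot1 and Acox3 overlap at 1 array of each group.

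Acox3, an oxidase of branched-chain acyl-CoA, read 10.58, 10.87, 10.83 and 11.05 on the mutant arrays and 10.48, 10.59, 10.35 and 10.27 on the control arrays. Mutant array 1 lay within the control range. The level was 1.33-fold higher (10.83 ± 0.194 against 10.42 ± 0.143, SD, n = 4 each; log2 difference 0.41, SE 0.10; limma adjusted p = 0.0420). With the replicate block it did not pass (limma adjusted p = 0.0706), nor when any of mutant arrays 2, 3 and 4 and control arrays 1, 3 and 4 was left out (0.0799 to 0.117), nor without mutant arrays 3 and 4 (0.130). Phyh, the first enzyme of phytanic acid alpha oxidation, read 12.02, 12.21, 12.19 and 12.26 on the mutant arrays and 11.92, 11.90, 11.96 and 11.91 on the control arrays, without overlap. It was 1.19-fold higher (12.17 ± 0.105 against 11.92 ± 0.0235, SD, n = 4 each; log2 difference 0.25, SE 0.06; limma adjusted p = 0.0375). It did not pass with the replicate block (limma adjusted p = 0.0523), nor with any single array other than mutant array 1 left out (0.0719 to 0.105), nor without mutant arrays 3 and 4 (0.130).

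Acox2 and Crot had groups that did not overlap and yet missed the threshold. Acox2, the oxidase that acts on bile acid intermediates, read 11.58, 11.20, 11.34 and 11.01 on the mutant arrays and 10.86, 10.92, 10.96 and 11.01 on the control arrays, with mutant array 4 just above control array 4 (log2 difference 0.35, limma adjusted p = 0.0861). It passed without mutant array 4 (limma adjusted p = 0.0246) and without mutant arrays 3 and 4 (0.0403). Crot, which makes carnitine esters of shortened acyl-CoA for export, read 11.62, 11.56, 11.52 and 11.57 on the mutant arrays and 11.36, 11.43, 11.48 and 11.34 on the control arrays (log2 difference 0.17, limma adjusted p = 0.0927). It passed after quantile normalization (limma adjusted p = 0.0409), with the upper 60% of probe sets (0.0465) and with trend and robust eBayes (0.0461).

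The remaining peroxisomal enzymes did not pass. The thiolase genes differed in sign: Acaa1b read 9.58 to 9.90 on the mutant arrays and 9.75 to 10.45 on the control arrays (log2 difference -0.35, limma adjusted p = 0.181), and Acaa1a read 9.12 to 9.18 and 8.88 to 9.15 (log2 difference 0.08, limma adjusted p = 0.546). Ehhadh and Hsd17b4 encode the bifunctional enzymes of the peroxisomal spiral. Their log2 differences were -0.18 and -0.14 (limma adjusted p = 0.394 and 0.241). Decr2, the peroxisomal dienoyl-CoA reductase, had a difference of -0.06 (95% interval -0.28 to 0.15). Crat, carnitine acetyltransferase of both organelles, had one of 0.04 (95% interval -0.07 to 0.15), and its readings of 11.66 to 11.81 over all 8 arrays were among the least variable, with a pooled SD at percentile 4.08 of all genes.

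In mitochondria the entry steps did not pass the test. Cpt1a, the carnitine palmitoyltransferase of the outer membrane and the regulated step of entry, read 12.21, 12.34, 12.25 and 12.31 on the mutant arrays and 12.21, 12.26, 12.15 and 12.20 on the control arrays (log2 difference 0.07, 95% interval -0.04 to 0.19). The carnitine-acylcarnitine carrier gene Slc25a20 read 10.08, 10.23, 10.40 and 10.42 on the mutant arrays and 10.50, 10.61, 10.24 and 10.79 on the control arrays (log2 difference -0.25, limma adjusted p = 0.249), overlapping through control array 3. Cpt2, the inner-membrane transferase gene, had a log2 difference of -0.15 (limma adjusted p = 0.232). Acsm3, a medium-chain acyl-CoA synthetase gene, varied most of all members, from 6.76 on mutant array 1 to 8.70 on mutant array 3 (pooled SD 0.621, percentile 99.7 of all genes), so that its 95% interval ran from -0.87 to 0.67.

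Among the acyl-CoA dehydrogenases, which open each round, 2 had groups that did not overlap, in opposite directions, and neither passed. Acadm, the medium-chain enzyme, read 12.88, 12.85, 12.90 and 12.87 on the mutant arrays and 12.77, 12.69, 12.70 and 12.64 on the control arrays (log2 difference 0.18, limma adjusted p = 0.0574). It passed after quantile normalization (limma adjusted p = 0.0192), with the upper 60% of probe sets (0.0251) and with trend and robust eBayes (0.0146). Acadl, the long-chain enzyme, read 11.41, 11.35, 11.49 and 11.43 on the mutant arrays and 11.65, 11.76, 11.52 and 11.62 on the control arrays (log2 difference -0.22, limma adjusted p = 0.0671). Acadl passed with the upper 60% of probe sets (limma adjusted p = 0.0382) and with trend and robust eBayes (0.0331), and not after quantile normalization (0.116). Over all members, 5 were higher and 4 lower without overlap of the groups, where this held for 6.57% and 8.2% of all genes. The very long-chain and short-chain enzymes, Acadvl and Acads, differed by -0.08 and 0.05 (limma adjusted p = 0.465 and 0.739).

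The later steps of the mitochondrial spiral differed little. The trifunctional protein genes Hadha and Hadhb, which encode its alpha and beta chains, had log2 differences of -0.08 and -0.06 (95% intervals -0.22 to 0.06 and -0.24 to 0.12), and the other Hadhb probe set also gave -0.06. The hydratase gene Echs1 differed by -0.03 (95% interval -0.14 to 0.08), the short-chain hydroxyacyl-CoA dehydrogenase gene Hadh by -0.06 (-0.19 to 0.08), and the thiolase gene Acaa2 by -0.11 (-0.31 to 0.09). Echs1 had the smallest pooled SD of the members, 0.0350. The electron transfer genes Etfa, Etfb and Etfdh, which carry electrons from the dehydrogenases to ubiquinone, had differences of -0.01, 0.02 and -0.11 (limma adjusted p = 0.957, 0.824 and 0.487).

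The genes of the mitochondrial enzymes for unsaturated fatty acids did not pass. Decr1, the dienoyl-CoA reductase gene, read 10.38, 10.47, 10.48 and 10.85 on the mutant arrays and 10.64, 10.76, 10.80 and 11.04 on the control arrays (log2 difference -0.27, limma adjusted p = 0.205). Subtracting same-numbered arrays gave -0.26, -0.29, -0.32 and -0.19, and with the replicate block Decr1 was called (limma adjusted p = 0.0237). Eci1, the mitochondrial isomerase gene, read 10.83, 10.79, 10.91 and 10.91 on the mutant arrays and 11.11, 11.34, 10.84 and 11.16 on the control arrays (log2 difference -0.25, limma adjusted p = 0.153), and passed without control array 3 (limma adjusted p = 0.0297). Over the 38 members, 8 were higher and 7 lower in all 4 same-numbered comparisons (21.1% and 18.4%), where this held for 17.9% and 16.1% of all genes, so these shares lay near the background.

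The regulators did not pass. Ppara, the receptor that activates these genes, read 10.70, 11.21, 11.14 and 11.23 on the mutant arrays and 11.18, 11.13, 11.03 and 10.87 on the control arrays (log2 difference 0.02, 95% interval -0.25 to 0.29). Mutant array 1 was the lowest of the 8. Ppargc1a, the coactivator PGC-1 alpha, read 11.94, 12.06, 12.03 and 12.00 on the mutant arrays and 11.77, 11.76, 11.80 and 11.93 on the control arrays, without overlap (log2 difference 0.19, limma adjusted p = 0.0760), and its other probe set gave 0.13. It passed after quantile normalization (limma adjusted p = 0.0233), with the upper 60% of probe sets (0.0405), with trend and robust eBayes (0.0338), with array weights (0.0389) and without control array 4 (0.0388). Ppargc1a did not pass with its probe sets averaged (limma adjusted p = 0.141) or with the replicate block (0.0899). Esrra, the estrogen-related receptor alpha that works with PGC-1 alpha, read 9.19 to 9.30 on the mutant arrays and 9.04 to 9.20 on the control arrays (log2 difference 0.13, limma adjusted p = 0.194).

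For the contrast between organelles, 19 genes were placed in a mitochondrial and 14 in a peroxisomal class, leaving out Acot1, Crat and the regulators. By class, 0 mitochondrial genes were higher and 1 lower (5.26% called), and 2 peroxisomal genes were higher and 2 lower (28.6%), beside 2.59% of all genes higher and 4.64% lower (7.23% in either direction). The mitochondrial share thus lay near the background, and the difference between the classes was not tested. Of 6 measured genes of the peroxisomal spiral only 1, Acox3, was called. The other peroxisomal calls were Phyh (alpha oxidation), Pex11a (division) and Eci2. The share depends on the class rule, since Eci2 was counted as peroxisomal although it is found in both organelles, whereas Crat was left out. The median size of a log2 difference, whatever its sign, was 0.10 for mitochondrial and 0.20 for peroxisomal genes, beside 0.09 over all genes. Spread within groups differed as well. The middle pooled SD was 0.0995 in the mitochondrial class (Cpt2), and lay between 0.1555 (Decr2) and 0.1688 (Acot4) in the peroxisomal class. Over all genes the median was 0.104. A larger spread widens such sizes by itself, so they alone do not show a larger response. The mitochondrial mean was 11.14, 11.24, 11.37 and 11.32 on the mutant arrays and 11.34, 11.43, 11.29 and 11.44 on the control arrays. The peroxisomal mean was 10.52, 10.60, 10.65 and 10.61 on the mutant arrays and 10.68, 10.75, 10.50 and 10.67 on the control arrays. In both classes control array 3 read below mutant arrays 3 and 4. In the mitochondrial class mutant array 3 also lay above control array 1. In the peroxisomal class control array 3 lay below every mutant array, and mutant array 3 lay below control arrays 1, 2 and 4.

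Within each array, the mitochondrial minus the peroxisomal mean was 0.62, 0.64, 0.72 and 0.71 on the mutant arrays and 0.66, 0.67, 0.79 and 0.77 on the control arrays. Only the change of this value between arrays can be read, since levels of different probe sets are not comparable. The groups overlapped (0.67 ± 0.049 against 0.72 ± 0.0672, SD, n = 4 each), and their difference of -0.05 on the log2 scale was smaller than the SD between arrays of a group, 0.0588, without regard to the replicate numbers. In both groups arrays 1 and 2 lay below arrays 3 and 4. Subtracting same-numbered arrays gave -0.03, -0.04, -0.07 and -0.05, with a mean of -0.05 and an SD of 0.0193. The labels do not say that same-numbered arrays are pairs. The subtraction was chosen because deviations of these arrays correlated in these same data. Its smaller SD and shared sign are therefore no separate support for a difference. With class medians in place of means the difference was -0.14. Leaving out mutant arrays 1 and 2 gave -0.0069, and leaving out mutant arrays 3 and 4 gave -0.09. No test was made of this value, since the genes were chosen with earlier results known.

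**Figure D3:**
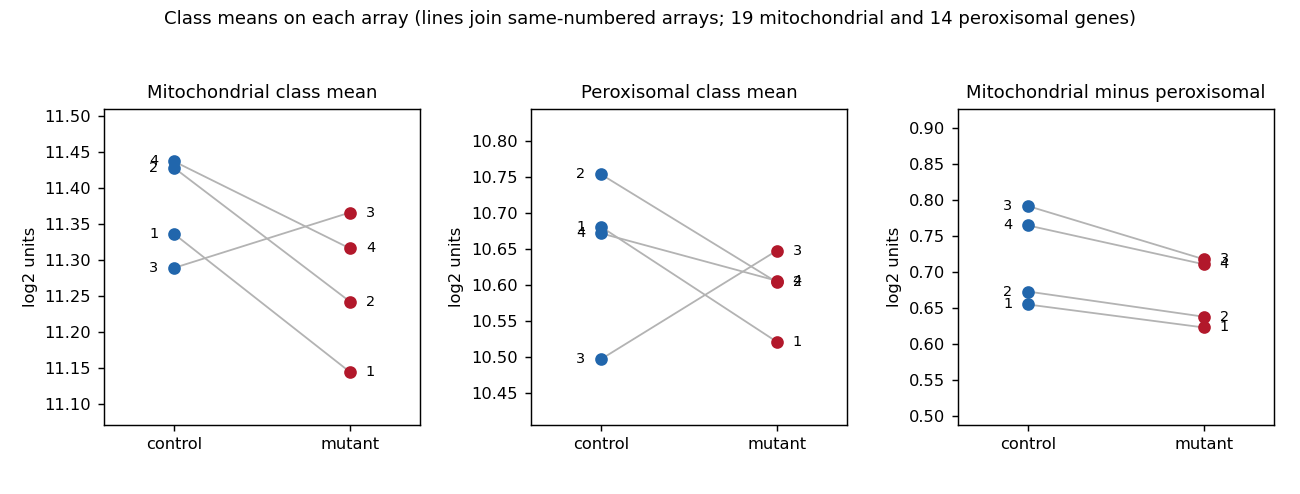
Mean log2 value of 19 mitochondrial genes, of 14 peroxisomal genes, and their difference (vertical axes, log2 units) on each array; grey lines join labelled control (blue) and labelled mutant (red) arrays of the same replicate number. The class means of number 3 run opposite to those of the other numbers, and the difference between classes lies between 0.62 and 0.79 with a small drop along all 4 lines. The labels do not say that arrays of the same number are pairs.

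Single arrays carried much of the variation of these genes. Mutant array 1 was the lowest of the mutant arrays for 23 of 38 members, where it was lowest for 25.5% of all genes. Control array 3 was the lowest of the control arrays for 25 of 38, against 29.0% of all genes, and control array 2 the highest for 18, against 26.6%. Relative to the control mean, 15 of 19 mitochondrial genes were lower on mutant array 1 and 15 on mutant array 2, with medians of -0.21 and -0.11. On mutant arrays 3 and 4 it was 11 of 19 each, with medians of -0.01 and -0.03. For the 14 peroxisomal genes the counts were 8, 7, 7 and 9 on mutant arrays 1 to 4. The median over all genes was between 0.004 and 0.038 on these arrays.

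**Figure D4:**
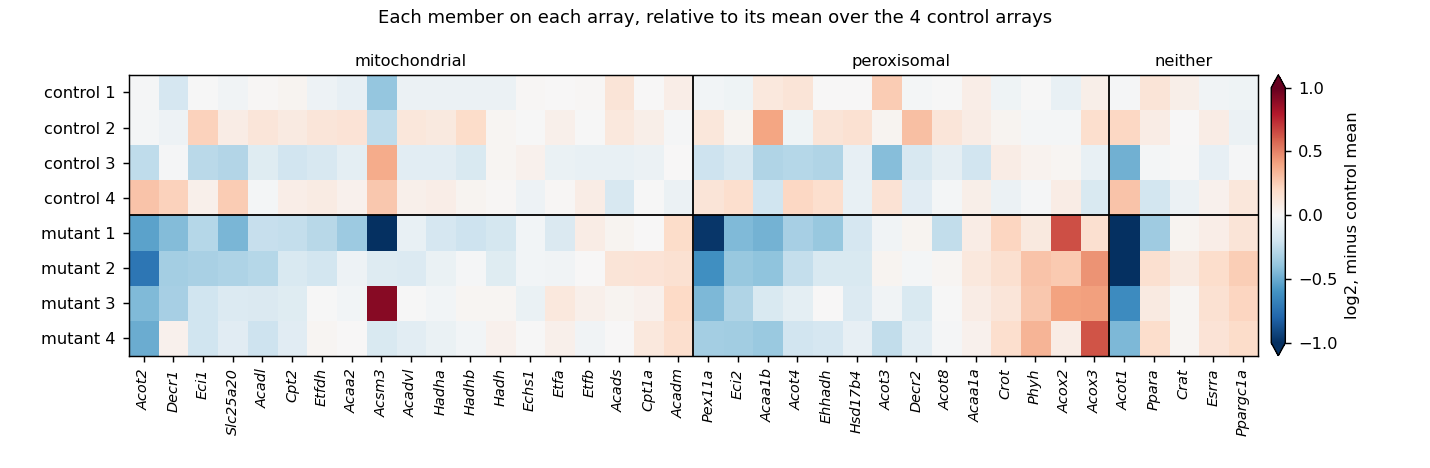
Log2 value of each measured gene (columns, by class) on each array (rows) minus its mean over the 4 labelled control arrays; colours are clipped at 1 log2 unit either way, which Acsm3 and Acot1 pass on 1 mutant array each. Control array 3 is blue across many mitochondrial and peroxisomal genes, and mutant arrays 1 and 2 are darker blue than mutant arrays 3 and 4 over the left part of each class.

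Other genes of these pathways, from lists set with earlier results known, mostly did not pass either. The share called in either direction was 6.9% of the further peroxisomal and 20.8% of the further mitochondrial and acyl-CoA genes. Over all genes it was 7.23% (2.59% higher and 4.64% lower). Of 29 measured further peroxisomal genes 1 was higher and 1 lower: Hacl1, the lyase that acts after Phyh in alpha oxidation, was 1.17-fold higher (limma adjusted p = 0.0297), and Hsdl2 1.28-fold lower (0.0485; 0.0563 with the replicate block and 0.0669 after quantile normalization). With any 1 array other than control array 1 left out Hacl1 missed the threshold (limma adjusted p up to 0.0908), and so did Hsdl2 with any 1 array other than control arrays 3 and 4 (up to 0.125). Without mutant arrays 1 and 2 the adjusted p was 0.154 for Hacl1 and 0.173 for Hsdl2, and without mutant arrays 3 and 4 it was 0.0522 and 0.112. Of 24 further mitochondrial and acyl-CoA genes 4 were higher (Acot11, Acad11, Acacb and Acot7) and 1 lower, with Acot11, a thioesterase gene, 1.58-fold higher (0.0418) and Acsf2, an acyl-CoA synthetase gene, 1.37-fold lower (0.0292). Acot11 missed the threshold when any of mutant arrays 2, 3 and 4 and control arrays 1, 2 and 3 was left out (limma adjusted p up to 0.120), and Acsf2 when any of mutant arrays 1, 2 and 4 and control arrays 2, 3 and 4 was (up to 0.0871). Acsf2 and Acot7 also missed it without mutant arrays 1 and 2 (0.180 and 0.122), and Acot11, Acad11 and Acacb without mutant arrays 3 and 4 (0.142, 0.0707 and 0.146). Among single arrays left out, Acacb missed it with any but mutant array 1 (up to 0.115), and Acot7 with any of mutant arrays 1 and 2 and control arrays 2 and 3 (up to 0.0653). The list medians were 0.05 and 0.09.

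Among 15 measured synthetase and fatty acid entry genes 3 were higher (Acsm2, Acsm5 and Dbi) and 1 lower. This count and those of the carnitine supply and ketone body lists stand beside 2.59% of all genes higher and 4.64% lower (7.23% called). Acsm2, a medium-chain acyl-CoA synthetase gene of the proximal tubule, read 11.85, 11.97, 12.15 and 12.10 on the mutant arrays and 11.62, 11.49, 11.44 and 11.52 on the control arrays (1.42-fold higher, limma adjusted p = 0.00351). Fabp1, the fatty acid binding protein gene, was 1.79-fold lower (limma adjusted p = 0.0258), and missed the threshold when any of arrays 1 and 2 of either group was left out (up to 0.0813) and without mutant arrays 1 and 2 together (0.175). Dbi, the acyl-CoA binding protein gene, missed it when any of mutant arrays 2, 3 and 4 and control arrays 1, 2 and 3 was left out (up to 0.0867), and without mutant arrays 3 and 4 (0.118). In the carnitine supply list, 1 of 7 was higher, Shmt1 (1.24-fold, limma adjusted p = 0.00603). Of 4 measured ketone body genes 2 were higher (Bdh1 and Oxct1) and 1 lower: Bdh1, hydroxybutyrate dehydrogenase, was 1.39-fold higher (limma adjusted p = 0.00357), and the carrier gene Slc16a1 was 1.74-fold lower (0.0499), and missed the threshold when any of mutant arrays 1 and 2 and control arrays 2, 3 and 4 was left out (up to 0.136) and without mutant arrays 1 and 2 together (0.238).

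PPAR alpha target genes outside the members had 0 higher and 4 lower of 18 measured (22.2% called), with a median log2 difference of -0.14. Among all genes 2.59% were higher and 4.64% lower (7.23% called). The 4 were Pdk4, Plin2, Txnip and Fabp1, which is also counted in the fatty acid entry list. Pdk4, the kinase gene that restrains pyruvate oxidation when fatty acids are burned, read 9.81, 10.55, 10.82 and 10.79 on the mutant arrays and 12.25, 12.57, 11.57 and 12.09 on the control arrays. It was 3.08-fold lower (limma adjusted p = 0.00411), without overlap, and mutant array 1 and control array 3 were the lowest of their groups, as for most members. Txnip missed the threshold when any of mutant array 4 and control arrays 1 and 2 was left out (limma adjusted p up to 0.0677) and without mutant arrays 1 and 2 (0.104). Plin2 missed it without mutant arrays 3 and 4 (0.0588). The classic targets Cyp4a10 and Cyp4a14 differed by -0.11 and -0.10 and did not pass (limma adjusted p = 0.398 and 0.721). Among 22 measured regulators (9.09% called), 1 was higher, Hif1a (1.51-fold, limma adjusted p = 0.00660), and 1 lower, Epas1 (1.29-fold, limma adjusted p = 0.00660), which encode HIF alpha subunits.

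Markers of some cell types moved with the groups as well. The counts of marker genes called, here and below, stand beside 2.59% of all genes higher and 4.64% lower. The mean log2 level of 19 proximal tubule markers was 11.72 to 11.99 on the mutant arrays and 11.52 to 11.79 on the control arrays, with overlap. Of these, 5 were higher (Slc22a8, Slc13a3, Slc6a19, Slc22a7 and Slc7a9) and 1 lower (Slc22a30). When single arrays were left out, Slc22a8 missed the threshold for 6 of the 8, Slc7a9 for 7 and Slc22a30 for 5 (limma adjusted p up to 0.121, 0.114 and 0.0767). Without mutant arrays 1 and 2, Slc22a8, Slc22a7, Slc7a9 and Slc22a30 missed it (0.0875, 0.0913, 0.183 and 0.110), and without mutant arrays 3 and 4, Slc22a8, Slc7a9 and Slc22a30 did (0.110, 0.0628 and 0.0695).

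Some markers of later tubule segments were higher on the mutant arrays. For 5 thick ascending limb markers the mean was 11.93 to 12.02 against 11.65 to 11.81, with 2 higher (Kcnj1 and Cldn16), and for 4 distal tubule markers it was 11.08 to 11.44 against 10.63 to 10.97, with 2 higher (Calb1 and Trpm6). Kcnj1 and Calb1 missed the threshold without mutant arrays 1 and 2 (limma adjusted p = 0.0563 and 0.0884). For 8 collecting duct markers the mean was 10.04 to 10.21 against 9.96 to 10.16, with 1 higher, Aqp3. It missed the threshold without mutant arrays 1 and 2 (limma adjusted p = 0.220) and without any of mutant arrays 1, 2 and 4 and control arrays 2 and 3 singly (up to 0.106).

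Some markers of cells outside the tubule were lower. The mean of 8 endothelial markers was 10.04 to 10.16 against 10.70 to 10.91, with all 8 lower, and that of 5 fibroblast markers was 9.0 to 9.11 against 9.27 to 9.52, with 2 lower (Dcn and Lum). Of 2 measured erythroid markers, Alas2 was 4.74-fold lower (limma adjusted p = 0.000698). The other, Slc4a1, which is also in the collecting duct list, went the other way and did not pass (log2 difference 0.25, limma adjusted p = 0.434). For 4 podocyte markers the mean was 9.16 to 9.33 against 9.23 to 9.34, with 1 lower (Podxl). The podocyte markers Nphs1 and Wt1 read higher without overlap of the groups and did not pass (log2 differences 0.17 and 0.10, limma adjusted p = 0.147 and 0.277). Synpo differed by -0.17 (limma adjusted p = 0.341). For 7 adipocyte markers the mean was 7.52 to 7.98 against 7.77 to 8.08, with 1 lower (Fabp4). Dcn, Podxl and Fabp4 missed the threshold without mutant arrays 1 and 2 (limma adjusted p = 0.0569, 0.0652 and 0.0633). Leukocyte, brown adipocyte and muscle markers had 0 of 6, 0 of 3 and 0 of 4 called by limma, and 2, 0 and 0 at an unadjusted p under 0.05. The part of any of these cell types in the differences of the members was not tested.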

How the data were processed

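Whole-kidney total RNA was biotin-labelled and hybridised to Affymetrix arrays, per the labels' protocols. The authors' deposited table holds log2 values of 35556 probe sets on 8 arrays. Limma, with no version, is the tool named in the submitters' processing notes. Background correction, summarization, normalization and genome build are not given in the sources used here. The table has no background readings, and differences of dim probe sets may be understated. The values, from 1.92 to 14.66, were used as deposited.

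Probe sets were named from the platform annotation, updated to the GRCm38.p6 gene table; 21789 named 1 gene, 1621 several and 12146 none. The labelled group was the only factor of a limma fit (version 3.58.1, R 4.3.3; lmFit, eBayes) over the 8 arrays, with two-sided p-values and Benjamini-Hochberg adjustment across 19936 genes. In all, 1442 genes were called. The fit was tested on simulated data. Nothing in the labels says more than that the arrays are separate mice, and their number limits the precision. The members, classes and lists were chosen with earlier results of these data known. All measured members are named, with the called gene of largest change in each direction from each pathway list; Acad11, Acacb, Acot7, Acsm5, Dbi, Oxct1, Plin2, Txnip, Cyp4a10, Cyp4a14 and the marker genes were added after their values were seen. Deviations from group means correlated between same-numbered arrays at 0.138, 0.153, 0.295 and 0.175. The labels do not tell what a number shares. On the ground of these correlations, same-numbered arrays were subtracted, and the replicate block was run as an alternative. The fit behind the calls did not pair the arrays. Alternatives were quantile normalization, median centring, keeping the upper 60% of probe sets, trend and robust eBayes, array weights, averaging the probe sets of a gene, the replicate block, an adjusted p under 0.01, other class definitions, and leaving out arrays.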

Additional observations from a re-analysis of the deposited data

Results flagged for a closer look

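In groups of 4 arrays, 5 values of the members lay far from the other 3 arrays of their group by Dixon's criterion; 84 groups were examined, and chance alone marks about 5% of them. Acaa2 read 11.85 on mutant array 1 (others 12.16 to 12.21), and Acot8 8.55 on the same array (others 8.78 to 8.81). Acaa1a read 8.88 on control array 3 (others 9.13 to 9.15). Hadh read 13.13 on control array 1 (others 13.20 to 13.21), and Crat read 11.81 on mutant array 2 (others 11.74 to 11.75). None of these 5 genes passed the limma test.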

How the results depend on the processing

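The count over all genes was 602 at an adjusted p under 0.01 and ran from 902 to 1368 without single arrays (917 without mutant array 2, 903 without control array 2, 902 without control array 3). The count of members was 10 with the upper 60% of probe sets (1619 over the genes kept) and 10 with trend and robust eBayes (1650 over all genes), beside 1442 genes in the main fit. It was 2 without mutant arrays 1 and 2 (962 over all genes), 0 at an adjusted p under 0.01 (602), and 2 to 5 without single arrays (902 to 1368). The difference between the class means was -0.14 with class medians and -0.07 to -0.03 without single arrays, and kept its sign under every alternative run. The Vhl difference was 0.29 with the replicate block (limma adjusted p = 0.0558), 0.35 without mutant arrays 1 and 2 (0.0661), 0.23 without mutant arrays 3 and 4 (0.123), and 0.25 to 0.35 without single arrays. Over 646 member results under alternatives, 573 kept direction and side of the threshold, 30 lost a call, 17 gained one and 26 changed sign. The changes of sign were of members that did not pass. The sign changed with array weights, of Acsm3 (0.0567) and Etfa (0.0036); without mutant arrays 1 and 2, of Acsm3 (0.38), Hadh (0.0305), Etfa (0.0779) and Etfdh (0.0076); under quantile normalization, of Hadh (0.0121), Echs1 (0.0051) and Etfa (0.0234); without mutant arrays 3 and 4, of Decr2 (0.0043) and Ppara (-0.0952). Without single arrays the log2 difference ran from -0.44 to 0.21 for Acsm3, -0.0076 to 0.0893 for Acads, -0.11 to 0.0013 for Hadhb, -0.0447 to 0.0384 for Etfa, -0.0017 to 0.0488 for Etfb, -0.11 to 0.0373 for Decr2, -0.21 to 0.0144 for Acot3, -0.0893 to 0.0029 for Acot8 and -0.0413 to 0.14 for Ppara. The cause of these changes was not tested.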
